A study of Mus musculus with 16 samples.

Results

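The genes described here are 48 chromosomal neighbours of 2 knocked-out genes, 27 that lie near Fuz on mouse chromosome 7 and 21 that lie near Gpr161 on chromosome 1. The list was chosen with earlier results of these data known. Its genes were matched by Ensembl identifier in tables that count reads for 54838 genes, and all 48 were found. The libraries are poly-A RNA-seq of E10.5 embryos, cut into Head (everything above the third branchial arches) and Tail (everything caudal to the forelimbs). Each region has 4 genotypes with 2 libraries each, namely Fuz KO, the Fuz and Gpr161 double knockout (DKO), Gpr161 KO and WT, which gives 16 libraries in 8 groups. Carriers of the Fuz allele are therefore the Fuz KO and DKO libraries, and carriers of the Gpr161 allele are the Gpr161 KO and DKO libraries, with 4 carriers and 4 non-carriers of each allele in each region. The labels state neither how the alleles were made, nor the strain, nor whether the libraries of a group come from separate embryos, so p-values measure the spread between these libraries, which may be technical.

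Fuz is an effector of planar cell polarity and belongs to the CPLANE complex, which is needed for transport into the primary cilium. Gpr161 is a receptor of the ciliary membrane that holds Hedgehog signalling in check. A gene that lies beside a targeted allele is inherited with it, so carriers share that stretch of chromosome as well as the lesion. The neighbours themselves have unrelated jobs: among those of Fuz are a Mediator subunit, clathrin and Golgi proteins, splicing and ribosomal proteins and regulators of cell survival, and among those of Gpr161 are metabolic enzymes, an ion pump subunit and ubiquitin ligase and phosphatase regulators.

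Levels are given as CPM, read counts set on 1 scale for all libraries with the TMM size factors of edgeR, and differences as log2 of carriers over non-carriers with their standard error (SE). A gene is said to have risen or fallen where the quasi-likelihood test of edgeR gave an adjusted p under 0.05 over all 21284 genes tested. Library totals lay between 39062489 and 53680317 reads. Fuz had 0.909 and 1.66 CPM in Head Fuz KO and 1.22 and 1.89 CPM in Head DKO, against 8.10 and 9.22 CPM in Head Gpr161 KO and 6.82 and 7.84 CPM in Head WT. In Tail it had 0.877 and 1.26 CPM in Fuz KO and 0.808 and 1.53 CPM in DKO, against 4.95 and 7.10 CPM in Gpr161 KO and 5.17 and 5.35 CPM in WT. Gpr161 had 2.12 to 5.44 CPM in the 8 carriers of its allele. Of the 8 non-carriers, Head Fuz KO 1 and Tail Fuz KO 1 had 25.4 and 24.3 CPM, and the others 42.7 to 55.0 CPM. Each targeted gene was thus lower in all carriers of its allele than in all non-carriers. The cause of the lower Gpr161 level in the Fuz KO 1 libraries was not tested, and their status as non-carriers rests on the label. Fuz fell by 2.49 ± 0.27 (SE) in Head carriers and by 2.33 ± 0.28 in Tail carriers on the log2 scale, and Gpr161 fell by 3.40 ± 0.27 in Head and by 3.53 ± 0.27 in Tail (edgeR adjusted p = 4.23e-04 and 0.00274 for Fuz, and 9.82e-05 and 9.48e-05 for Gpr161). Of the 48 neighbours 47 passed the filter on low counts. The one that did not, Tbx19, a T-box factor of the pituitary, reached at most 0.196 CPM.

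Some libraries stood apart, and this touches several results. The Fuz KO 1 and DKO 1 libraries had high hypoxia and glycolysis genes, with a median of 2.58 and 2.31 in Head and of 2.19 and 1.71 in Tail (log2 difference from the WT mean of the region, 27 genes). Gpr161 KO 1 followed with 1.26 in Head and 1.07 in Tail, Gpr161 KO 2 had 0.63 in Head and 0.35 in Tail, and DKO 2 had 0.56 and 0.35. Genes of the integrated stress response (15 genes) had medians of 1.41 and 1.63 in the Head Fuz KO 1 and DKO 1 libraries and of 1.66 and 1.099 in the Tail ones, against at most 0.33 in the other 12 libraries. The Head Gpr161 KO libraries had high cardiomyocyte genes, with medians of 6.53 and 4.27 (20 genes), against a range of -0.45 to 0.70 in the other 14 libraries. Sex was uneven: Xist, the RNA that silences 1 X chromosome in females, was at 0.333 to 1.22 CPM in 10 libraries and at 824 to 977 CPM in 6. All 8 Fuz allele carriers were on the low side, all 4 WT libraries on the high side, and Gpr161 KO had 1 of each in each region.

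Bcl2l12, a Bcl-2-related protein known to restrain caspases and p53, was the neighbour that separated Fuz carriers most clearly from non-carriers. The 3 neighbours that fell in Tail were Bcl2l12, Med25, the Mediator subunit that receives transcriptional activators, and Ap2a1, the alpha subunit of the AP-2 clathrin adaptor. Med25 and Ap2a1 sit close to Fuz on either side, 2 tested genes before it and next to it, and Bcl2l12 sits 7 tested genes after it. Their promoter windows, from 250 bases before to 50 bases after the start of the RefSeq gene, are printed because these are the members that fell together in Tail. They were read from RefSeq promoters on GRCm38.p6, where 42 of the 48 neighbours have an entry. Capitals mark GGGCGG (a GC box), CCAAT and TATAAA, each searched on both strands.
Bcl2l12, chr7:44997530-44997829, minus strand: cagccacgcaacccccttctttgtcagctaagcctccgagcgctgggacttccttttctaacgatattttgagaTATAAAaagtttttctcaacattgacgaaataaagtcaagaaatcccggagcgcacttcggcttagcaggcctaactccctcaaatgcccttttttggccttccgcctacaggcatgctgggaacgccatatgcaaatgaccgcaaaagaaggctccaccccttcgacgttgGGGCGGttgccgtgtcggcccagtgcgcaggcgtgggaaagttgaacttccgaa
Med25, chr7:44892375-44892674, minus strand: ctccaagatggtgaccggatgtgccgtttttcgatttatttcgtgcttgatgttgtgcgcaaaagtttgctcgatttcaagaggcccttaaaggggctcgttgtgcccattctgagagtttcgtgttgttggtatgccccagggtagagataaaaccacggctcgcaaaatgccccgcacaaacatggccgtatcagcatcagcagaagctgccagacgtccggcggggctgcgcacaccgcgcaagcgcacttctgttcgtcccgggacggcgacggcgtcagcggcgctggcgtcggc
Ap2a1, chr7:44929441-44929740, minus strand: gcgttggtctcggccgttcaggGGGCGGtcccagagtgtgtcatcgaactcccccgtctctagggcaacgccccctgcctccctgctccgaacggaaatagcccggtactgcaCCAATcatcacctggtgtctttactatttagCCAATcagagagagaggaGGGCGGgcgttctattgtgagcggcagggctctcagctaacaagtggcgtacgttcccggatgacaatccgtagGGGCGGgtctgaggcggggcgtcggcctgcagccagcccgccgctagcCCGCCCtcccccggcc

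Ap2a1 held 4 GC boxes and 2 CCAAT boxes in its window, Bcl2l12 held 1 GC box across the start and 1 TATAAA far before it, and Med25 held none of the 3. No hit shared a base with another. Over 27025 RefSeq promoters of this length, 35.9% held GGGCGG, 37.9% CCAAT and 14.2% TATAAA. Of the 42 neighbour promoters 35 held GGGCGG, 22 CCAAT and 4 TATAAA. The window of Bcl2l12 shares 168 bases with that of Irf3, an interferon regulatory factor on the opposite strand. The build the submitters named is GRCm39, so these coordinates are those of the promoter table and of no deposited file.

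Bcl2l12 in Head had 11.0 and 10.3 CPM in Fuz KO and 10.6 and 10.2 CPM in DKO, against 15.1 and 15.5 CPM in Gpr161 KO and 16.6 and 16.0 CPM in WT. In Tail it had 7.69 and 9.28 CPM in Fuz KO and 8.57 and 8.42 CPM in DKO, against 15.6 and 16.1 CPM in Gpr161 KO and 15.3 and 16.3 CPM in WT. Every carrier lay below every non-carrier in both regions, which no other Fuz neighbour did and which 2.08% of all genes tested did in 1 direction or the other. Bcl2l12 fell by 0.58 ± 0.11 (SE) on the log2 scale in Head (edgeR adjusted p = 0.0157) and by 0.90 ± 0.11 in Tail (edgeR adjusted p = 0.00401), to 66.7% and 53.6% of the non-carrier mean. The exact two-sided permutation test gave p = 0.0286 in each region, the smallest that 4 against 4 allows. Groups that do not overlap always give this p, so it restates the separation. Groups did not overlap for 9.97% of all genes in Head and 8.44% in Tail. On the WT background alone, Fuz KO minus WT was -0.61 ± 0.16 in Head and -0.90 ± 0.16 in Tail. On the Gpr161 KO background, DKO minus Gpr161 KO was -0.55 ± 0.16 in Head and -0.90 ± 0.16 in Tail, and of these 4 the last passed the test (edgeR adjusted p = 0.0287), a call that held in 8 of 16 fits that left out 1 library (up to 0.279). The difference between Tail and Head was -0.32 ± 0.16 and did not pass the test (edgeR adjusted p = 0.846).

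Without the Fuz KO 1 and DKO 1 libraries the difference in Bcl2l12 was -0.63 in Head and -0.83 in Tail (edgeR adjusted p = 0.0138 and 0.00947). That fit leaves 1 library in each carrier group, so its spread comes from WT and Gpr161 KO alone and the lone carriers are assumed to vary like them. Sex is only partly separable from the allele, because only Gpr161 KO holds both sexes. With sex as a term the difference was -0.55 ± 0.17 in Head and -0.87 ± 0.17 in Tail, and neither passed the test (edgeR adjusted p = 0.27 and 0.183). With that term Fuz itself passed in Head and not in Tail (edgeR adjusted p = 0.0207 and 0.148). Leaving out 1 library at a time, the Tail call held in all 16 fits. The Head call held in 11 and was lost when either WT or either DKO library of Head, or the second Gpr161 KO library of Head, was left out (edgeR adjusted p up to 0.0787). With each region fitted alone the adjusted p was 0.0616 in Head and 0.0542 in Tail (edgeR). Irf3, whose span overlaps that of Bcl2l12 on the opposite strand in the GENCODE M21 annotation of GRCm38, had a log2 difference of 0.06 in Head and -0.15 in Tail, and its groups overlapped. The strand setting of the counting is not given in the sources used here, so reads of overlapping genes cannot be told apart.

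**Figure D1:**
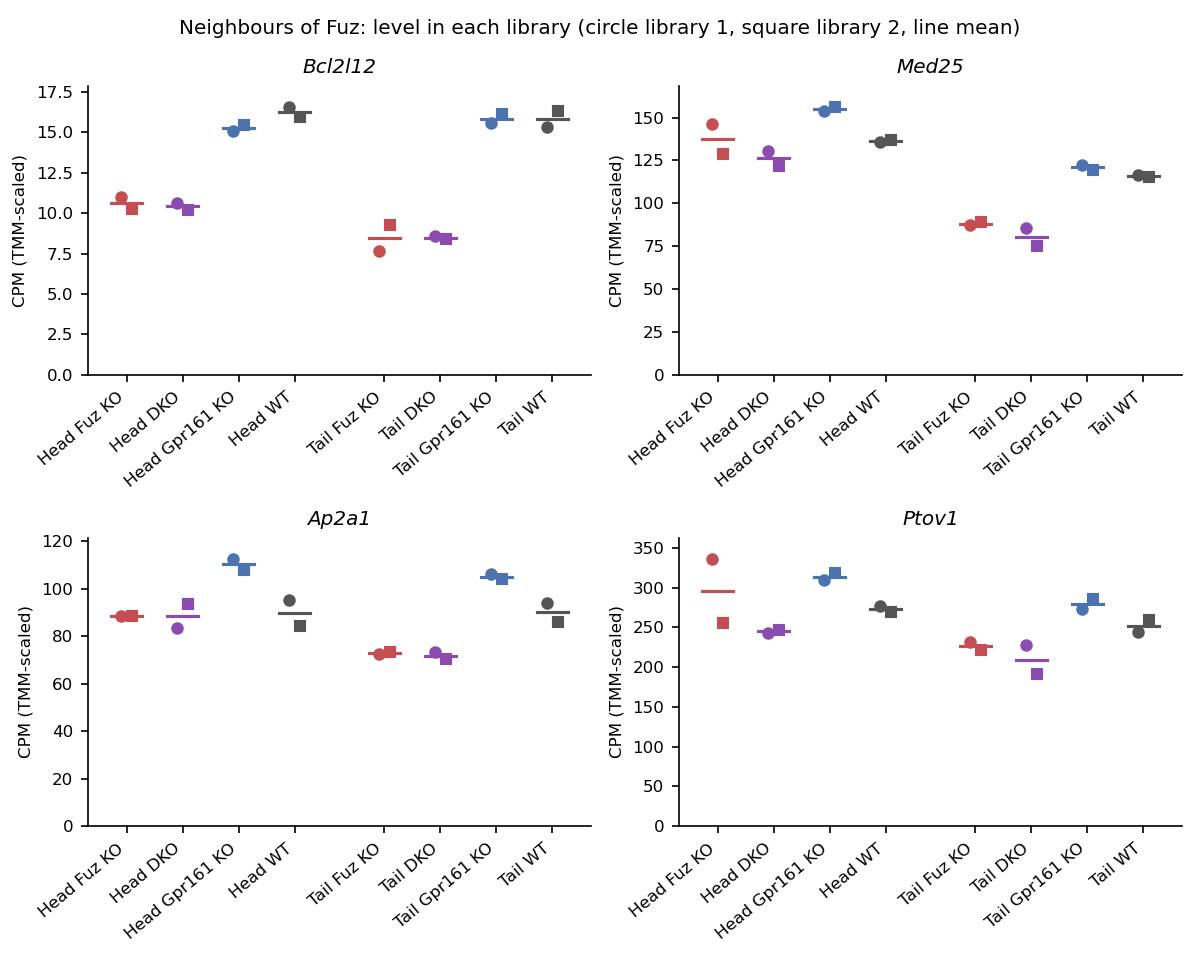
Level of Bcl2l12, Med25, Ap2a1 and Ptov1 in CPM (y axis, TMM-scaled) in the 8 groups (x axis, Fuz carriers left of non-carriers in each region). Circles are library 1, squares library 2 and lines the mean of 2. Bcl2l12 lies at 7.69 to 11.0 CPM in all carriers and at 15.1 to 16.6 CPM in all non-carriers, and the other 3 separate carriers from non-carriers in Tail only.

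Med25 in Tail had 87.1 and 89.3 CPM in Fuz KO and 85.6 and 74.9 CPM in DKO, against 122.6 and 119.6 CPM in Gpr161 KO and 116.7 and 115.4 CPM in WT. Carriers and non-carriers did not overlap, and Med25 fell by 0.49 ± 0.07 on the log2 scale (edgeR adjusted p = 0.00814). The call was lost without Tail WT 2, Tail Gpr161 KO 1, Tail Gpr161 KO 2 or Tail DKO 2 (edgeR adjusted p up to 0.0614). In Head the carriers had 121.8 to 146.3 CPM, against 135.7 to 156.0 CPM in non-carriers, so the groups overlapped and the difference of -0.14 ± 0.07 did not pass the test. Tail minus Head for Med25 was -0.35 ± 0.10, which did not pass either (edgeR adjusted p = 0.357).

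Ap2a1 in Tail had 72.6 and 73.1 CPM in Fuz KO and 73.2 and 70.3 CPM in DKO, against 105.9 and 104.0 CPM in Gpr161 KO and 93.9 and 86.2 CPM in WT. The groups did not overlap, and Ap2a1 fell by 0.43 ± 0.07 on the log2 scale (edgeR adjusted p = 0.0258). The call held in 5 of 16 fits that left out 1 library, with edgeR adjusted p between 0.0101 and 0.147. Those 5 left out a Head Fuz KO, a Head DKO or the second Tail Fuz KO library. In Head the difference was -0.17 ± 0.07, with overlapping groups. The spans of Ap2a1 and Fuz overlap on opposite strands in the same annotation, so some reads could count for either gene, and the part of such reads was not tested.

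Among the other nearest genes, Ptov1, a protein that shares a domain with Med25, did not pass the test. In Tail it had 190.9 to 231.2 CPM in carriers against 243.6 to 285.9 CPM in non-carriers, with no overlap and a difference of -0.29 (edgeR adjusted p = 0.217). In Head its difference was -0.12 (edgeR adjusted p = 0.484). Akt1s1, an inhibitor of the mTORC1 kinase, lies 5 tested genes before Fuz and had differences of -0.03 in Head (95% interval -0.20 to 0.14) and -0.09 in Tail (-0.26 to 0.08). Prmt1, the main protein arginine methyltransferase, had differences of 0.20 in Head and 0.03 in Tail, neither past the test. Prmt1 lies between Ap2a1 and Bcl2l12, so genes that fell in Tail and a gene that did not pass alternate along the chromosome.

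Counted over the 27 Fuz neighbours, 1 fell in Head carriers (Bcl2l12), where 3.48% of all genes tested passed, 2.5% lower and 0.982% higher. In Tail 3 fell and 1 rose, Sec1, where 0.31% of all genes passed, 0.254% lower and 0.0564% higher. Over both regions 4 fell and 2 rose, where 7.8% passed, 4.86% lower and 2.94% higher. At an unadjusted p under 0.05 there were 8, 7 and 11 of 27 in Head, Tail and both regions, where 20.1%, 12.3% and 26% of all genes were. The count in Head lies near the background and that in Tail above it. The members were chosen with earlier results of these data known, so these counts carry no test of their own. The Tail count includes Sec1, with means of 4.25 CPM in Fuz KO and 4.59 CPM in DKO. Its Tail means were 3.79 CPM in WT and 0.0237 CPM in Gpr161 KO. The median difference of the 27 was 0.13 in Head and 0.03 in Tail, against 0.02 in each region for all genes. Groups did not overlap for 3 of 27 in Head, where 9.97% of all genes did not overlap, and for 7 of 27 in Tail, where 8.44% did not. In Head those were Bcl2l12 on the low side and Bax and Rpl13a on the high side. In Tail, Med25, Ap2a1, Ptov1, Bcl2l12, Scaf1 and Nucb1 were on the low side and Ftl1 on the high side. Of the 27 differences 18 were positive in Head and 14 in Tail. No neighbour was called for the difference between Tail and Head (edgeR, where 0.0564% of all genes were). At an unadjusted p under 0.05 there were 3, where 6.32% of all genes were. DESeq2 called 1 neighbour for that difference, beside 229 of all genes.

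**Figure D2:**
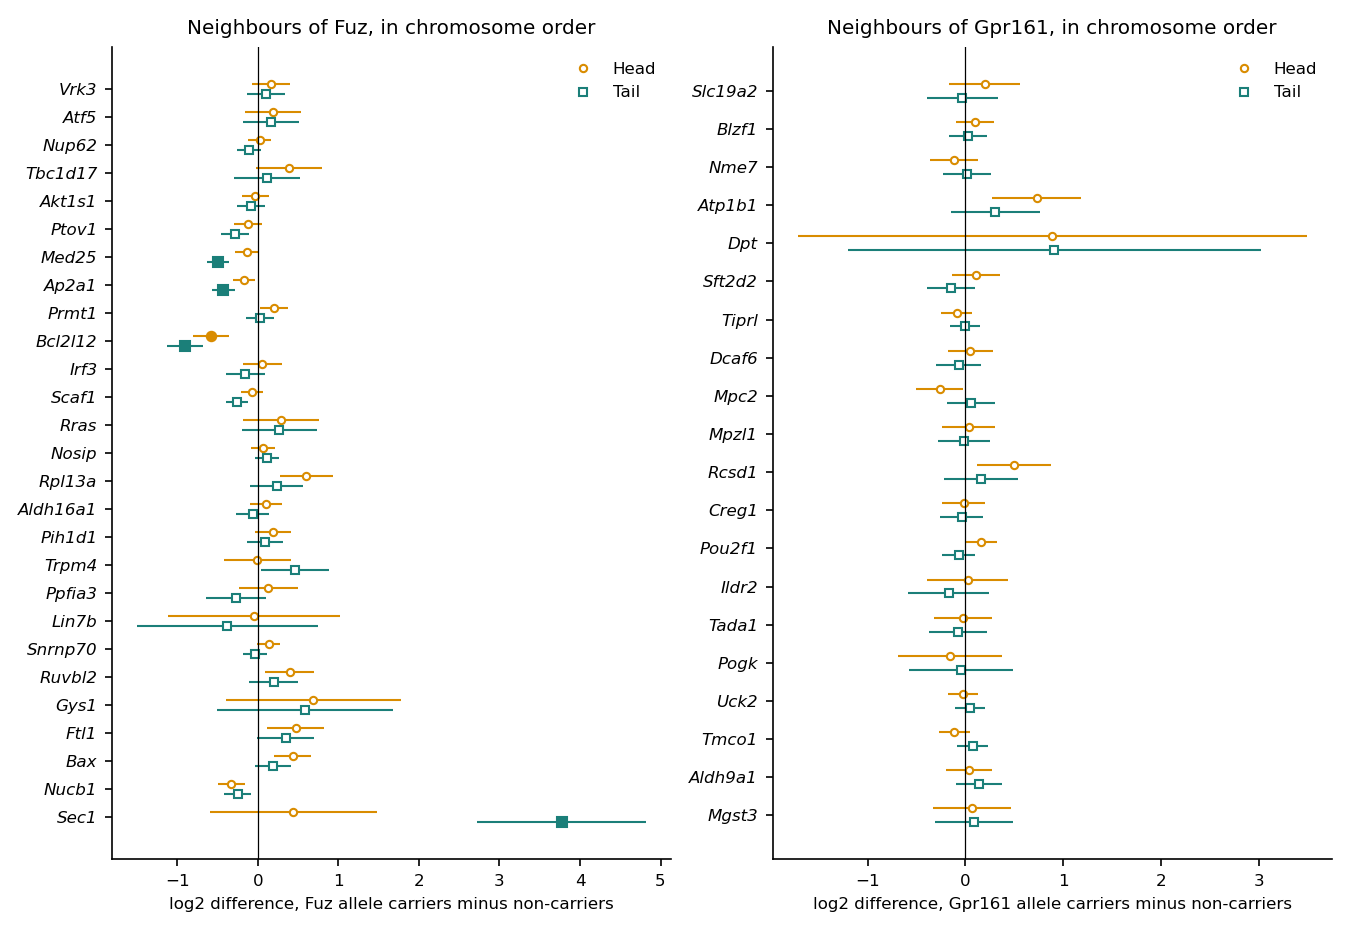
Log2 difference (x axis) between carriers and non-carriers of the allele beside which each gene lies, for the 47 tested neighbours in chromosome order (y axis), with 95% intervals, in Head (circles) and Tail (squares). Filled symbols passed the test; those near Fuz are Bcl2l12 in both regions and Med25, Ap2a1 and Sec1 in Tail, and near Gpr161 no symbol is filled.

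The neighbours of Fuz were also described by role, in lists drawn up with earlier results of these data known. Of the metabolic and redox genes Ftl1, Gys1, Aldh16a1 and Sec1, Sec1 rose in Tail. Ftl1, the ferritin light chain, had 796.1 and 367.6 CPM in Head Fuz KO and 449 and 446.7 CPM in Head DKO, against 346.1 to 421.1 CPM in Head non-carriers, and did not pass. Of the vesicle and Golgi genes Ap2a1, Tbc1d17, Nucb1, Lin7b and Ppfia3, Ap2a1 fell in Tail. Of the growth and survival genes Akt1s1, Rras, Bax, Bcl2l12 and Vrk3, Bcl2l12 fell in each region. Of the transcription and chromatin genes Med25, Atf5, Ptov1, Prmt1, Irf3 and Ruvbl2, Med25 fell in Tail. None of the RNA processing, ribosome and nuclear pore genes Scaf1, Snrnp70, Rpl13a, Pih1d1 and Nup62 passed in either region, and neither did the channel Trpm4 or Nosip. These lists carry no test of their own.

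Bax and Nucb1 passed over both regions and in neither region alone. That comparison counts Head and Tail libraries as independent, although those of 1 genotype and number correlated in their deviations (r of 0.133 to 0.437 over 4 pairs). Between regions of different genotypes r was -0.0518 to 0.268, and the WT and Gpr161 KO pairs (0.133 and 0.196) lay within that range. Xist was low in Gpr161 KO 1 (0.739 CPM in Head and 0.521 CPM in Tail) and high in Gpr161 KO 2 (879 and 977 CPM). Head and Tail of a number may thus share an embryo, which the labels do not state. With Head and Tail of a number summed, Bcl2l12 and Sec1 passed (edgeR adjusted p = 0.0298 and 0.0240) and Med25, Ap2a1, Bax and Nucb1 did not (0.123, 0.111, 0.198 and 0.167), while 141 of all genes did. Bax, the pore-forming effector of apoptosis, had 87.6 and 54.5 CPM in Head Fuz KO and 59.2 and 58.5 CPM in Head DKO, against 48.4 and 49.5 CPM in Head Gpr161 KO and 46.2 and 47.9 CPM in Head WT. It rose by 0.31 ± 0.08 over both regions (edgeR adjusted p = 0.0377), and that call held in 3 of the 16 fits that left out 1 library (edgeR adjusted p up to 0.0871), those without either Head Fuz KO library or the second Tail Fuz KO library. Nucb1, a calcium-binding protein of the Golgi, had 64.6 to 76.1 CPM in Head carriers, against 74.8 to 102.1 CPM in Head non-carriers. In Tail it had 64.3 to 78.2 CPM in carriers, against 81.5 to 89.7 CPM in non-carriers. Nucb1 fell by 0.29 ± 0.06 over both regions (edgeR adjusted p = 0.0142), and the call was lost without Head WT 1 (0.0511).

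Gys1, Rpl13a and Ruvbl2 were highest, in each region, in the Fuz KO 1 library, which had high hypoxia genes. Gys1, the glycogen synthase of muscle and most tissues, had 202.0 and 52.4 CPM in Head Fuz KO and 167.7 and 58.2 CPM in Head DKO, against 114.2 and 85.4 CPM in Head Gpr161 KO and 56.7 and 53.9 CPM in Head WT. In Tail the values were 132.1 and 42.7 CPM in Fuz KO and 112.6 and 35.4 CPM in DKO, against 63.9 and 56.9 CPM in Gpr161 KO and 48.4 and 46.9 CPM in WT. In each carrier group the first library was high and the second lay between 35.4 and 58.2 CPM, near or under WT. The difference of 0.69 in Head did not pass the test, and without the Fuz KO 1 and DKO 1 libraries it turned to -0.43 (edgeR adjusted p = 0.0492). Rpl13a, a ribosomal protein with pseudogene copies that could share its reads, had 101.3 and 54.2 CPM in Head Fuz KO and 67.2 and 60.6 CPM in Head DKO, against 43.4 to 50.8 CPM in the 4 Head non-carriers. Its difference of 0.60 did not pass (edgeR adjusted p = 0.0704). All Head carriers lay above all Head non-carriers for Rpl13a. Head Gpr161 KO 1, with a hypoxia median of 1.26, had 45.5 CPM of Rpl13a. Among the 4 Head carriers Rpl13a was in the order of that median, from 101.3 CPM at 2.58 to 54.2 CPM at 0.14. Ruvbl2, an ATPase of chromatin remodelling complexes, had 294.5 and 174.3 CPM in Head Fuz KO and 264.1 and 209.5 CPM in Head DKO, against 170.9 to 193.0 CPM in Head non-carriers, again with the first library of each carrier group the higher. The part of the hypoxia state in these values was not tested.

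**Figure D3:**
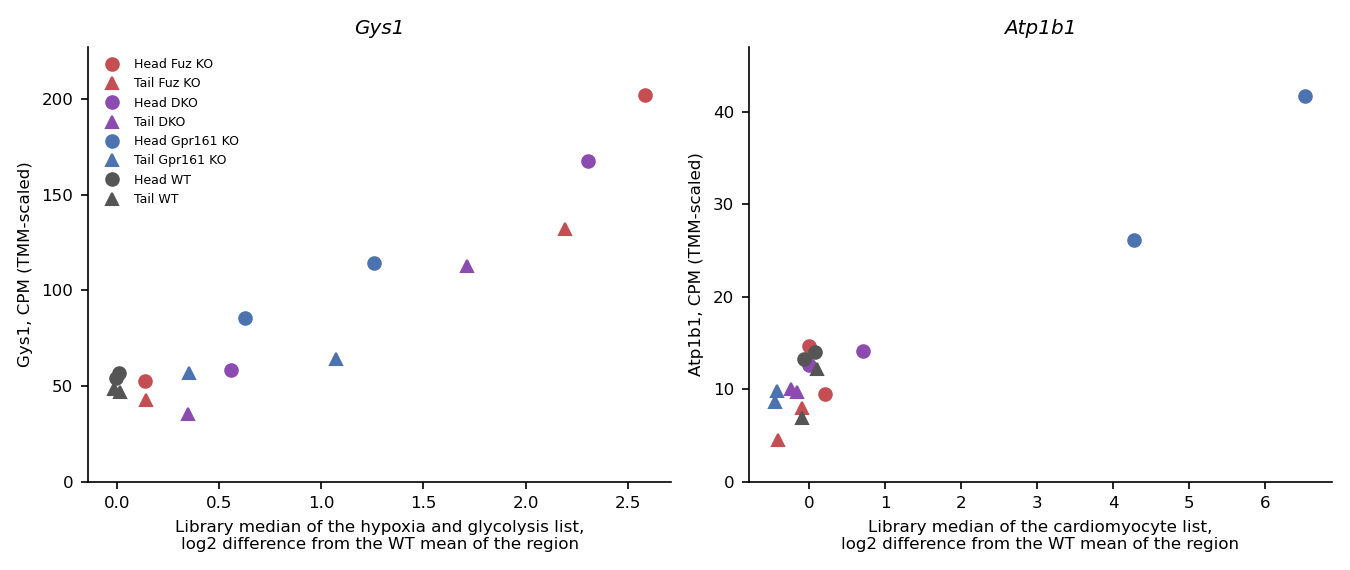
Level in CPM (y axis, TMM-scaled) of Gys1 against the median of the hypoxia and glycolysis genes, and of Atp1b1 against that of the cardiomyocyte genes (x axes, log2 difference from the WT mean of the region), 1 point for each of 16 libraries. Gys1 is highest, at 202.0 and 167.7 CPM, in Head Fuz KO 1 and Head DKO 1, and Atp1b1, at 41.7 and 26.1 CPM, in the Head Gpr161 KO libraries.

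Leaving out the Fuz KO 1 and DKO 1 libraries gave 6 Fuz neighbours called in Head, 7 in Tail and 11 over both regions, from the fit with 1 library per carrier group. Calls over all genes went up as well, with 1328, 948 and 3004 without those libraries and 741, 66 and 1660 with them. Bcl2l12, Med25, Ptov1 and Nucb1 were called in both regions in that fit, all on the low side. With sex as a term, no Fuz neighbour passed in Head, Tail or both regions, and the counts over all genes were 124, 4 and 41. The 3 differences in Tail kept their size with that term, at -0.87 for Bcl2l12, -0.50 for Med25 and -0.46 for Ap2a1.

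The 2 backgrounds share no library, so each gives its own test of the Fuz allele. Fuz KO against WT gave no call among the 27 neighbours in Head or in Tail (edgeR, 0.047% and 0.0094% of all genes). At an unadjusted p under 0.05 there were 6 and 4 of them, where 8.17% and 5.21% of all genes were. DESeq2 called 1 neighbour in each, beside 49 of all genes in Head and 24 in Tail. DKO against Gpr161 KO gave 1 call in Head, Nucb1 at -0.50 (4.16% of all genes), and 4 in Tail, Med25 at -0.59, Ap2a1 at -0.55, Bcl2l12 at -0.90 and Sec1 (0.522% of all genes). Of 16 fits that left out 1 library, the call held in 6 for Nucb1 (edgeR adjusted p up to 0.256), 12 for Med25 (0.279), 8 for Ap2a1 (0.309), 8 for Bcl2l12 (0.279) and 16 for Sec1. Nucb1 was lost without any 1 WT, Gpr161 KO or DKO library of Head or any 1 WT or Gpr161 KO library of Tail. Ap2a1 and Bcl2l12 were lost without any 1 Gpr161 KO or DKO library of Tail or any 1 WT or Gpr161 KO library of Head, and Med25 without any 1 Gpr161 KO or DKO library of Tail. The sign was the same on both backgrounds for 21 of 27 neighbours in Tail, where it was the same for 56.0% of all genes, and for 18 of 27 in Head, where it was the same for 60.3%. Ap2a1 and Med25 had their highest levels in Gpr161 KO, in both regions, and their differences were wider on that background. Med25 was also lower in DKO than in Fuz KO, with means of 80.3 and 88.2 CPM in Tail and 126.2 and 137.5 CPM in Head. The background difference did not pass for either gene in either region.

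Sec1 followed a different pattern, being nearly absent from Gpr161 KO. It encodes a fucosyltransferase closely related to Fut1 and Fut2, and lies 61 tested genes from Fuz. In Tail it had 2.27 and 6.22 CPM in Fuz KO and 5.22 and 3.96 CPM in DKO, against 0.0474 and 0 CPM in Gpr161 KO and 3.35 and 4.23 CPM in WT. The carriers of the Fuz allele lay on both sides of the WT values, and the low non-carriers were those of Gpr161 KO, which held 2 reads in all. The ratio of DKO to Gpr161 KO was 184 (95% counting interval 50.5 to 1520), and that of WT to Gpr161 KO was 154 (42.2 to 1275), with intervals that cover counting error only. Sec1 rose with the Fuz allele in Tail and fell with the Gpr161 allele in Tail (edgeR adjusted p = 0.00814 and 0.0215). The first call was lost without Tail WT 2 or Tail Gpr161 KO 2 (edgeR adjusted p up to 0.062), and the second without any 1 of the WT, Gpr161 KO and DKO libraries of Tail (edgeR adjusted p up to 0.127). The exact two-sided permutation test of the Fuz allele gave p = 0.171, since the groups overlap. The Fuz effect differed between the backgrounds (edgeR adjusted p = 0.0369), the only such call among the neighbours in Tail, where 0.0423% of all genes passed, and it held in 7 of 16 fits that left out 1 library. It was lost without either Head WT library, the first Tail Fuz KO library or any 1 WT, Gpr161 KO or DKO library of Tail (edgeR adjusted p up to 0.195). In Head none of the neighbours was called for that difference (edgeR, 0.164% of all genes), with 3 Fuz and 3 Gpr161 neighbours at an unadjusted p under 0.05, where 8.02% of all genes were. In Head all Sec1 levels were low, at 0.0246 to 0.547 CPM, and every carrier of the Gpr161 allele lay below every non-carrier. Reads of Fut1 and Fut2 could be split with those of Sec1, and how the counting treated them is not given in the sources used here.

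Car11, a carbonic anhydrase-related protein without catalytic activity that lies 2 tested genes from Sec1, had a like pattern, and was chosen for description after its values were seen. In Tail it had 15.7 and 10.1 CPM in Fuz KO and 9.68 and 8.07 CPM in DKO, against 2.25 and 1.86 CPM in Gpr161 KO and 8.16 and 9.77 CPM in WT. In Head it had 12.5 and 6.64 CPM in Fuz KO and 5.80 and 4.5 CPM in DKO, against 2.32 and 2.23 CPM in Gpr161 KO and 4.22 and 4.06 CPM in WT. Gpr161 KO was the lowest group in both regions, although Gpr161 lies on another chromosome, and DKO, which carries the same Gpr161 allele, was not low. With the Gpr161 allele Car11 fell by 1.33 ± 0.22 in Tail (edgeR adjusted p = 0.0334) and rose with the Fuz allele by 1.19 ± 0.22 in Head and 1.32 ± 0.22 in Tail (edgeR adjusted p = 0.0127 and 0.0274).

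**Figure D4:**
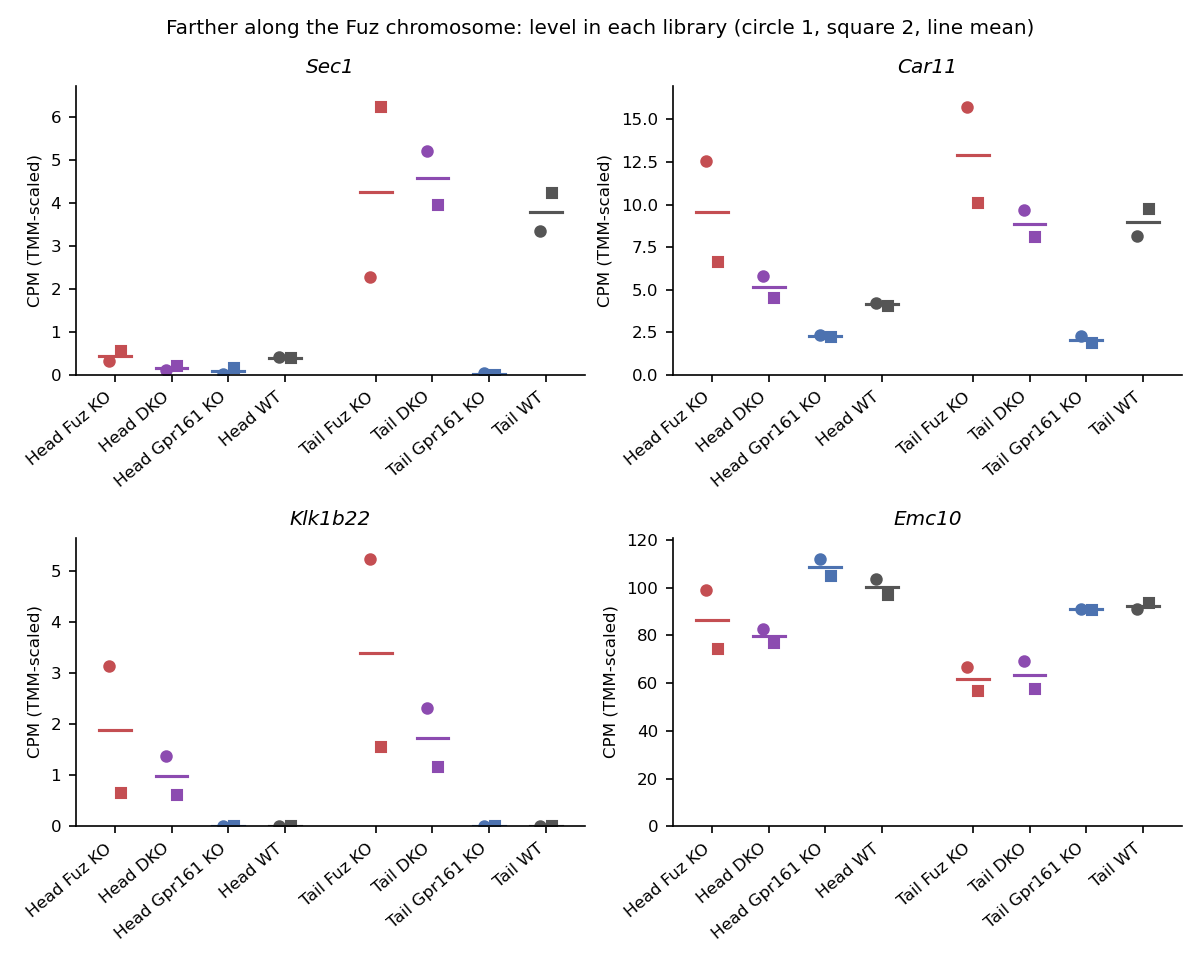
Level of Sec1, Car11, Klk1b22 and Emc10 in CPM (y axis, TMM-scaled) in the 8 groups (x axis, Fuz carriers left of non-carriers in each region). Circles are library 1, squares library 2 and lines the mean of 2. Sec1 in Tail and Car11 in both regions are low in Gpr161 KO, while Klk1b22 is at 0 in all 8 non-carriers of the Fuz allele and at 0.615 to 5.24 CPM in all 8 carriers.

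The stretch of chromosome around Fuz was then read gene by gene, whether or not a gene was on the list. Of the 50 tested genes on each side, 4 were called with the Fuz allele in Head (4% of 100, where 3.48% of all genes were) and 5 in Tail (5%, where 0.31% were). With 100 on each side the counts were 8 in Head and 8 in Tail. In Tail, 10 of 1642 tested genes of chromosome 7 passed, and 9 of them, Fuz included, lay within 100 tested genes of Fuz. These were Klk1b22, Emc10, Med25, Fuz, Ap2a1, Bcl2l12, Sec1, Car11 and Saa2.

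Klk1b22, a kallikrein-related peptidase from a family of near-identical copies, gave the sharpest separation and lies 37 tested genes from Fuz. It had 3.14 and 0.642 CPM in Head Fuz KO, 1.37 and 0.615 CPM in Head DKO, 5.24 and 1.56 CPM in Tail Fuz KO and 2.31 and 1.16 CPM in Tail DKO. All 8 non-carriers were at 0. Klk1b22 was at least 79.9-fold higher in Head carriers (232 reads, against none) and at least 136-fold higher in Tail carriers (425 reads, against none), taking 3 reads over the non-carriers of a region as the floor. The Head call held in all 16 fits that left out 1 library, and the Tail call in 10, being lost without any 1 WT, Gpr161 KO or DKO library of Tail (edgeR adjusted p up to 0.0929). Its level is uncertain because reads of the copies can be split.

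Emc10, a subunit of the membrane protein insertase of the endoplasmic reticulum, had 66.9 and 56.7 CPM in Tail Fuz KO and 69.2 and 57.6 CPM in Tail DKO, against 91.2 and 90.7 CPM in Tail Gpr161 KO and 90.9 and 93.6 CPM in Tail WT. It fell by 0.55 ± 0.10 in Tail (edgeR adjusted p = 0.0366), a call that held in 3 of 16 fits that left out 1 library, those without either Head Fuz KO library or the first Tail Fuz KO library (up to 0.209 in the rest). In Head, Josd2, a deubiquitinase, fell by 0.57 ± 0.11 and Fam71e1 fell by 1.40 ± 0.26 (edgeR adjusted p = 0.0151 and 0.0125). These held in 13 and 14 of the 16 fits: Josd2 was lost without Head WT 1, Head Gpr161 KO 2 or Head DKO 1, and Fam71e1 without Head WT 1 or Head DKO 2 (edgeR adjusted p up to 0.0792 and 0.0767). Prr12, a proline-rich nuclear protein that lies 11 tested genes after Fuz, fell by 0.31 ± 0.06 over both regions (edgeR adjusted p = 0.00678, and 0.128 with Head and Tail of a number summed).

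**Figure D5:**
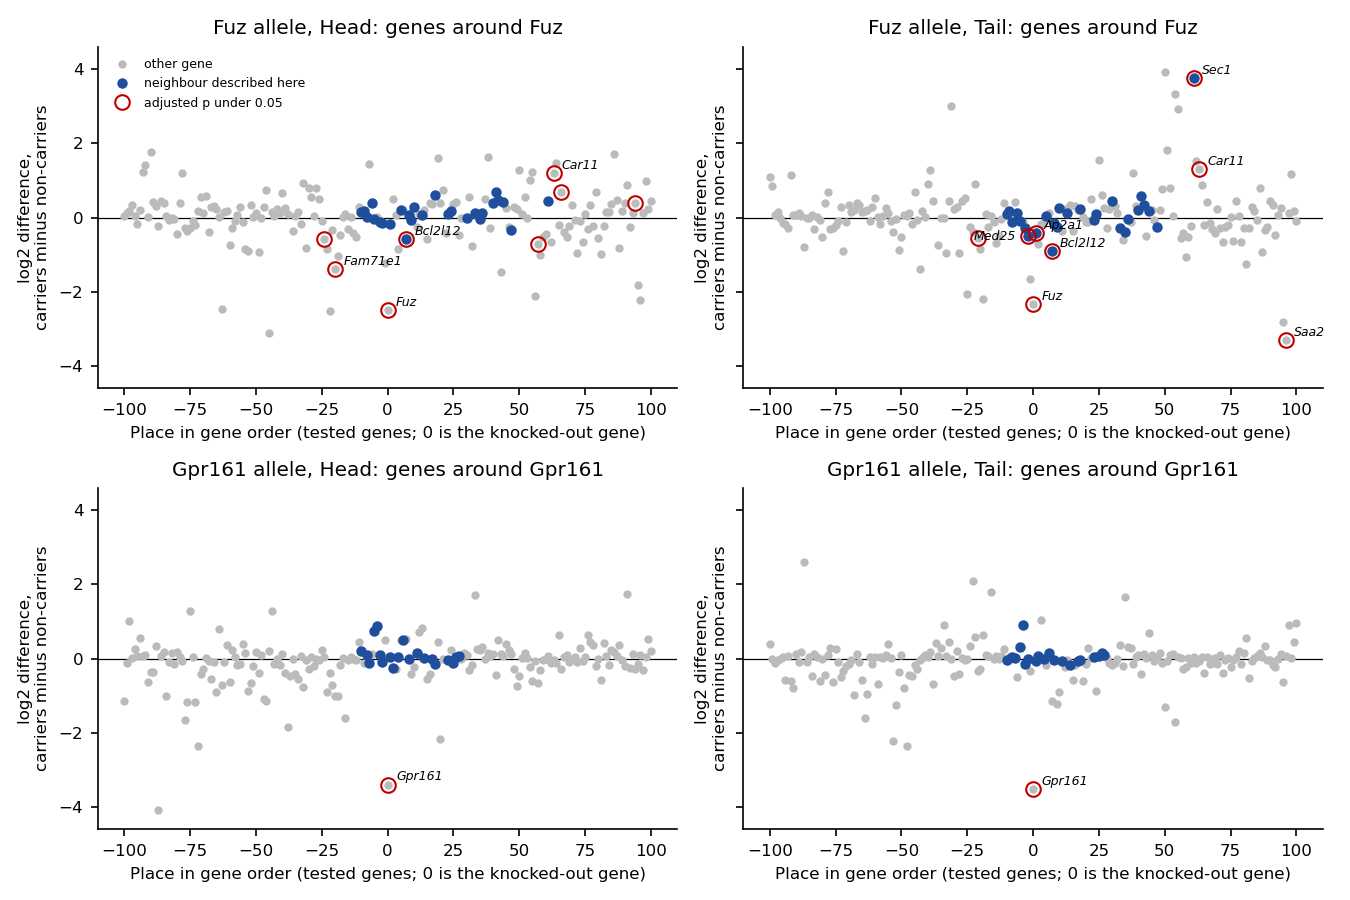
Log2 difference between carriers and non-carriers (y axis) by place in the order of tested genes (x axis, 0 is the knocked-out gene), for the Fuz allele around Fuz and the Gpr161 allele around Gpr161, in Head and Tail. Klk1b22, at 0 in all non-carriers, is left off the scale. Circled genes passed the test: beside Fuz, 7 in each of its panels, and around Gpr161 only Gpr161.

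The genes around Gpr161 were read in the same way, with the Gpr161 allele. No Gpr161 neighbour passed the test with the Gpr161 allele in Head, Tail or both regions (edgeR, where 0.512%, 0.169% and 0.926% of all genes passed), and 2, 0 and 2 had an unadjusted p under 0.05, where 9.55%, 5.44% and 10.9% of all genes had. DESeq2 called none as well. Within each background edgeR called none either. For Gpr161 KO against WT it called 2.02% of all genes in Head and 0.305% in Tail. For DKO against Fuz KO it called 0.0282% in Head and 0.0329% in Tail. DESeq2 called 2 neighbours for Gpr161 KO against WT in Head. Its count over all genes there is not given here, so these 2 are not set against a background. At an unadjusted p under 0.05 there were 4 in Gpr161 KO against WT in Head (12.9% of all genes) and 0 in Tail (6.98%), and 0 in DKO against Fuz KO in Head (2.89%) and 2 in Tail (3.69%). No neighbour passed for Tail minus Head (edgeR, 0.0047% of all genes), and none had an unadjusted p under 0.05, where 4.1% of all genes had. The medians of the 20 tested were 0.04 in Head and 0.00 in Tail. The 95% interval stayed within 1.5-fold in either direction for 16 of 20 in Head and 17 of 20 in Tail, against 17 and 18 of 27 Fuz neighbours with the Fuz allele. Within 100 tested genes on each side of Gpr161, no gene but Gpr161 itself was called in either region. A difference between the 2 loci was not tested.

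Among the members nearest to Gpr161, Dcaf6, Tiprl and Sft2d2 had small differences. The 95% interval of Dpt, also among the nearest and with few reads, reached beyond 1.5-fold in Head and in Tail. Dcaf6, a substrate receptor of the CUL4 ubiquitin ligase, had 16.9 to 23.1 CPM in Head carriers against 17.9 to 21.1 CPM in Head non-carriers, with a log2 difference of 0.05 (95% interval -0.18 to 0.28). In Tail it was -0.07 (-0.30 to 0.16). Tiprl, a regulator of type 2A phosphatases, had a difference of -0.09 (-0.24 to 0.07) in Head and -0.01 (-0.16 to 0.15) in Tail. Sft2d2, a Golgi transport protein, had 0.11 in Head and -0.15 in Tail, neither past the test.

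Mpc2, a subunit of the mitochondrial pyruvate carrier 2 tested genes after Gpr161, was the only Gpr161 neighbour whose groups did not overlap, in Head only. It had 19.5 and 18.3 CPM in Gpr161 KO and 18.4 and 20.5 CPM in DKO, against 25.1 and 22.0 CPM in Fuz KO and 23.0 and 22.0 CPM in WT, and 2.04% of all genes had groups that did not overlap. The log2 difference of -0.26 ± 0.12 did not pass the test (edgeR adjusted p = 0.532). The exact two-sided permutation test gave p = 0.0286, as it does for any groups of this size that do not overlap. In Tail Mpc2 had 15.2 to 19.1 CPM in carriers against 12.2 to 18.6 CPM in non-carriers, and no Gpr161 neighbour separated the groups there, where 2.68% of all genes did. Mpzl1, an immunoglobulin-like surface protein, had differences of 0.04 in Head and -0.01 in Tail.

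Atp1b1 and Rcsd1 gave the largest differences in Head among Gpr161 neighbours with at least 1 CPM on average. Atp1b1, the beta subunit of the sodium pump, had 41.7 and 26.1 CPM in Gpr161 KO and 14.2 and 12.6 CPM in DKO, against 9.45 and 14.7 CPM in Fuz KO and 13.3 and 14.1 CPM in WT. Rcsd1, which binds the actin capping protein CapZ, had 33.9 and 24.2 CPM in Gpr161 KO and 14.9 and 13.4 CPM in DKO, against 17.3 and 11.7 CPM in Fuz KO and 16.5 and 11.8 CPM in WT. In Head both were high in the Gpr161 KO libraries alone, which are those with high cardiomyocyte genes, and not in DKO, which carries the same allele. In Tail, Rcsd1 had 24.9 and 23.3 CPM in Gpr161 KO and 21.2 and 13.7 CPM in DKO. Tail Fuz KO had 23.8 and 16.2 CPM and Tail WT 17.5 and 16.2 CPM. The cardiomyocyte medians of the Tail Gpr161 KO libraries were -0.42 and -0.45. The Head differences of 0.73 for Atp1b1 and 0.50 for Rcsd1 did not pass the test, and the part of the heart genes was not tested. DKO minus Gpr161 KO in Head, the Fuz allele on that background, was -1.34 ± 0.33 for Atp1b1 (edgeR adjusted p = 0.0393), the only Gpr161 neighbour called there. The call held in 6 of 16 fits that left out 1 library, those without a Fuz KO library of either region or a WT library of Tail (up to 0.297 in the rest).

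Crossing the loci and the alleles gave few calls. No Gpr161 neighbour passed with the Fuz allele in Head, Tail or both regions (edgeR, where 3.48%, 0.31% and 7.8% of all genes did), with 7, 1 and 3 at an unadjusted p under 0.05, where 20.1%, 12.3% and 26% of all genes were. Of the Fuz neighbours, Sec1 passed with the Gpr161 allele in Tail (0.169% of all genes) and over both regions (0.926%), the second not with Head and Tail of a number summed (edgeR adjusted p = 0.0692), and no other did. Around Gpr161 as a whole, 5 of the 100 nearest tested genes passed with the Fuz allele in Head (3.48% of all genes) and 0 in Tail. Among them Dusp27, a phosphatase-related gene of muscle, had 2.54 and 4.90 CPM in Fuz KO and 3.25 and 4.21 CPM in DKO, against 16.8 and 13.7 CPM in Gpr161 KO and 6.15 and 5.35 CPM in WT, highest where the cardiomyocyte genes were. The others were Rgs5, Gm7694 and Olfml2b on the low side and Gas5, a host of small nucleolar RNAs, on the high side. Of 16 fits that left out 1 library, the Head calls held in 9 for Dusp27, 4 for Rgs5, 6 for Gm7694, 4 for Olfml2b and 10 for Gas5 (edgeR adjusted p up to 0.119, 0.16, 0.146, 0.167 and 0.129), and each was lost without either WT or either Gpr161 KO library of Head, among others. Over both regions Prrc2c (low) and Ccdc181 (high) passed with the Fuz allele, but not with Head and Tail of a number summed (edgeR adjusted p = 0.194 and 0.199), and they held in 7 and 6 of the 16 fits that left out 1 library.

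Around Fuz, 5430431A17Rik passed with the Gpr161 allele in Head (edgeR adjusted p = 0.0459), where Gpr161 KO held 10.0 and 3.12 CPM and every other library under 1 CPM. Slc17a7, a vesicular glutamate transporter, fell with that allele over both regions (edgeR adjusted p = 0.0433). In Tail it had 0.0474 and 0 CPM in Gpr161 KO and 0.693 and 0.627 CPM in DKO. Tail Fuz KO had 0.181 and 0.840 CPM and Tail WT 0.909 and 2.01 CPM, so DKO lay within the non-carrier range. In Head, carriers had 0.690 to 1.18 CPM, against 1.20 to 1.88 CPM in non-carriers. Both calls held in 4 of 16 fits that left out 1 library (up to 0.207 and 0.109), and that of Slc17a7 was lost with Head and Tail of a number summed (0.21). The fits that held left out Head WT 2, Head Gpr161 KO 2 or a Tail Fuz KO library for 5430431A17Rik, and a Head Fuz KO library, Tail WT 1 or Tail Fuz KO 1 for Slc17a7.

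Pogk, a KRAB-domain protein derived from a transposase, had 41.8 CPM in Head Fuz KO 1 and 43.8 CPM in Tail Fuz KO 1, which are also libraries with high hypoxia genes. The other Head libraries had 64.0 to 108.0 CPM and the other Tail libraries 63.9 to 90.4 CPM. Dpt, a matrix protein of connective tissue, had at most 0.569 CPM in any library, and no difference in it was detected.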

How the data were processed

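Raw read counts for 54838 mouse genes were deposited by the authors, 1 table per library. For GRCm39 the submitters' processing notes list, with no role, STAR 2.7.1a, featureCounts 1.6.0, HTSeq, StringTie 2.0.4, Picard 2.20.4, Trimmomatic and FastQC. Libraries were poly-A selected, per the labels' protocols. Symbols and gene order came from GENCODE M21 (GRCm38), which matched 54809 identifiers.

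The counts of all 16 libraries went into 1 edgeR 4.0.16 model (R 4.3.3, TMM, filterByExpr, robust quasi-likelihood test, 1 coefficient per group, 8 residual degrees of freedom), with Benjamini-Hochberg adjustment over all genes tested. Allele comparisons set the mean of the carrier groups against that of the non-carrier groups. Deviations of Head and Tail libraries of 1 genotype and number correlated positively in all 4 pairs, 2 of them within the range between different genotypes. Comparisons over both regions were therefore repeated on their summed counts. Single genes were also tested by exact permutation of log2(CPM + 0.5). The fit was checked on simulated counts. Alternatives were RLE size factors, scaling outside chromosomes 1 and 7, no filter, a filter of 5 CPM, separate or summed regions, a block for the replicate number, DESeq2 1.42.0, sex as a term, cardiomyocyte genes removed, and libraries left out.

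Genes described were the called members, the 3 tested members nearest on each side, the 4 with the largest differences at 1 CPM or more on average, and up to 5 called non-members per comparison by adjusted p. The members and lists were chosen with earlier results of these data known.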

Additional observations from a re-analysis of the deposited data

Results flagged for a closer look

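Among 80 groups of 4 libraries, 7 held a library far from the other 3, where chance alone gives about 1 in 20. In Head Fuz allele carriers, Fuz KO 1 stood apart at 87.6 CPM for Bax, with the next carrier at 59.2, and at 336 CPM for Ptov1, with the next at 255. In Head Gpr161 allele non-carriers, Fuz KO 1 stood apart at 164 CPM for Mpzl1, with the next at 109.7, and at 41.8 CPM for Pogk, with the next at 101.5. In Tail non-carriers of the Gpr161 allele, Fuz KO 1 stood apart at 43.8 CPM for Pogk, with the next at 87.9, and at 23.8 CPM for Rcsd1, with the next at 17.5. In Tail non-carriers of the Fuz allele, Gpr161 KO 2 stood apart at 54.5 CPM for Rpl13a, with the next at 63.0. The Fuz KO 1 libraries are those with high hypoxia genes, and the part this plays in these values was not tested. Sec1 in Tail was the only neighbour whose Fuz effect differed between backgrounds: the difference of the fitted log2 effects was 7.22, a value that depends on the 2 reads in Gpr161 KO.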

How the results depend on the processing

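Beside 1 Fuz neighbour called in Head with the Fuz allele, the count was 2 with RLE size factors, 6 with no filter, 3 with the filter of 5 CPM, 0 with regions fitted alone, 4 with DESeq2, 6 without the Fuz KO 1 and DKO 1 libraries and 0 with sex as a term. Over all genes the same settings, in that order, gave 767, 2197, 890, 355, 1872, 1328 and 124 beside 741. Beside 4 in Tail it was 1 with regions fitted alone, 7 without the Fuz KO 1 and DKO 1 libraries and 0 with sex. Beside 6 over both regions it was 10 with no filter, 10 with DESeq2, 11 without those libraries, 0 with sex and 2 with regions summed. Over all genes those settings gave 25, 948 and 4 beside 66 in Tail, and 3014, 3081, 3004, 41 and 141 beside 1660 over both regions. On WT in Head, where none was called, no filter gave 5 and DESeq2 gave 1 (780 and 49 of all genes beside 10); in Tail each gave 1 (519 and 24 beside 2). On Gpr161 KO in Head, beside 1, the count was 2 with no filter, 3 with 5 CPM, 0 with regions alone, 3 with DESeq2 and 7 without the Fuz KO 1 and DKO 1 libraries (1780, 1000, 575, 1805 and 2406 of all genes beside 886). On Gpr161 KO in Tail, beside 4, it was 1 with regions alone and 8 without them (59 and 1986 beside 111). For Tail minus Head, with none called, no filter and DESeq2 each gave 1 (501 and 229 beside 12).

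Gpr161 neighbours with the Gpr161 allele, none called, reached 1 with no filter in Head and over both regions. On WT in Head they reached 3 with no filter and 2 with DESeq2. The counts over all genes under these settings are not given here, so the 3 and 2 are not set against a background. For the background difference in Head, no filter gave 1 for each list. In Tail the single call, Sec1, was lost (0) with 5 CPM and with regions alone. Windows of 100 genes gave 8, 8 and 25 around Fuz in Head, Tail and both regions. In an alternative chosen after seeing the data, the Fuz KO 1 and DKO 1 libraries were left out. Groups then did not overlap for 8 Fuz neighbours in Head (22.6% of all genes), and for 4 Gpr161 neighbours in Head (13.6%) and 1 in Tail (12.5%). With fewer libraries groups separate more often, so these are not set against the earlier counts. Gys1 turned to -0.43 in Head and -0.45 over both regions without them. The cause of these shifts was not tested. Head Fuz KO 2 decided the most: without it 9 Fuz neighbours were called in Head and 13 over both regions, beside 3146 and 4040 of all genes.

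Leaving out 1 library at a time, the Fuz neighbours called ranged over 0 to 9 in Head and 1 to 4 in Tail. Over both regions they ranged over 4 to 13, and for Tail minus Head the count stayed at 0. Calls over all genes in the same fits ranged over 183 to 3146 in Head, 21 to 338 in Tail and 641 to 4040 over both regions. For Tail minus Head they ranged over 2 to 57. Within a single background such a fit leaves 1 library in a group, so no range is given there for the Fuz neighbours. Gpr161 neighbours stayed at 0, except 0 to 1 on WT in Head. The background difference ranged over 0 to 1 in each region for Fuz neighbours. The Head count was 2 without Tail Fuz KO 1 or 2 and 0 without Head WT 1, WT 2, Gpr161 KO 2, DKO 1 or DKO 2. The Tail count was 1 without Tail WT 2 or Gpr161 KO 2 and 2 without Tail Gpr161 KO 1 or DKO 2. The replicate number as a block gave 4 Fuz neighbours called in Head and 10 over both regions for the Fuz allele. Over all genes it gave 1198 in Head beside 741, and 2477 over both regions beside 1660. It also gave 2 Gpr161 neighbours on WT in Head, for which the count over all genes is not given here. Differences between libraries 1 and 2 correlated across genotypes with r between -0.0787 and 0.302 within a region, so the numbers were not taken to pair genotypes. Head and Tail of 1 genotype and number correlated with r of 0.133 to 0.437, against -0.0518 to 0.268 between regions of different genotypes. Summing Head and Tail of a number is given above.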
